A study of Rattus norvegicus with 9 samples.

Results

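The genes described here encode the subunits of oxidative phosphorylation, grouped by the complex they belong to. They were taken by symbol: Nduf followed by a, b, c, s or v and a digit for complex I, Sdha to Sdhd for complex II, symbols starting with Uqcr for complex III, Cox followed by a digit from 4 to 8 for complex IV, and symbols starting with Atp5 for complex V. This gave 79 genes of the 14217 named genes on the array, on 88 of its 31042 rat probe sets: 35 of complex I, 4 of complex II, 7 of complex III, 17 of complex IV and 16 of complex V. A gene with several probe sets was represented by the one of highest mean. No measured difference entered that choice of probe set, but the gene group was chosen with earlier results of these data known. Another 7 probe sets that list such a symbol together with a second gene were not used.

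RNA came from the thalamus, the relay between the senses, the brainstem and the cortex, of male Wistar rats, a common outbred strain. The chow group had 4 arrays and received pelleted feed, which has to be chewed, for 8 days. The powder group had 5 arrays and received powdered feed over the same 8 days. The rats began at 3 weeks of age, all ate powder during 2 preparatory days, and the age label of each sample is 5 weeks. The labels speak of 10 rats and do not tie a sample to a rat, so p-values measure the spread between samples, which may be partly technical. The comparison sets pelleted against powdered feed in the young thalamus. Only the chow group changed feed after the preparatory days, so chewing and the change of feed cannot be told apart. The tissue was measured in bulk, so a change in the mix of cells and a change in RNA per cell cannot be told apart.

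Oxidative phosphorylation takes place in the inner mitochondrial membrane. Complexes I and II pass electrons from NADH and succinate to ubiquinone, complex III passes them to cytochrome c, and complex IV passes them to oxygen. Complexes I, III and IV pump protons, and complex V, the ATP synthase, makes ATP as protons flow back. The genes here are nuclear, while a few further subunits are encoded in mitochondrial DNA. Neurons draw most of their ATP from this pathway.

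The deposited values are log2 expression values, from 5.37 to 14, with array medians between 7.39 and 7.40. Most genes hardly vary over the arrays: 83% of the 14217 genes span less than 0.01 log2 units over all 9, and are called compressed here, while the other 2414 are called uncompressed. A compressed gene can pass the test with a difference that has almost no size. One array stood apart in its tissue markers: all 6 measured striatal neuron markers were highest and all 9 thalamic relay neuron markers lowest on chow 1. Their mean log2 values there were 8.745 and 9.67, against 7.733 to 7.928 and 10.01 to 10.23 on the other 8 arrays. Further lists also had extremes on chow 1. Of 7 reticular nucleus and GABA neuron markers, 5 were highest and 2 lowest, and 5 of 8 microglia markers were highest. Of 9 general neuron markers 5 were lowest, as were 5 of 8 endothelium and pericyte markers. Defining relay neuron genes were present on every array, with Tcf7l2 between 11.5 and 12.1 and Slc17a6 between 11.2 and 11.7. The neuron and glia lists had 0 to 3 calls in either direction, among them Syt1 (0.42), Nefm (-0.28), Snap25 (-0.022), Prox1 (-0.35) and Mobp (-0.13). Flt1 of the endothelium and pericyte list was called too (-0.41). The part of these lists in the differences below was not tested.

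Under chow, 27 of the 79 genes were higher and 0 were lower than under powder (limma, Benjamini-Hochberg adjusted p under 0.05 over all genes), or 34.2%. Over all 14217 genes, 14.2% were called higher and 18.8% lower. At an unadjusted p under 0.05, 40 members were higher and 0 lower, but the share of all genes at that limit is not given here. With unmoderated limma statistics 0 members were called lower, and the 9 uncompressed members named below stayed called higher. There 1856 of all genes were called higher and 2488 lower, among them 201 and 922 uncompressed genes. With compressed probe sets left out 10 members were called higher, where 528 of all genes tested there were higher and 1149 lower. With a beta-actin covariate, an RNA quality measure, 1 member was, where 213 of all genes were higher and 511 lower. With the replicate number as a block 0 members were, where 0 of all genes were higher and 11 lower. After quantile normalization 46 members were higher and 1, Atp5f1a, lower, where 8329 of all genes were higher and 1000 lower. With array medians subtracted 77 were higher and 0 lower, where 12112 of all genes were higher and 1133 lower, so calls on compressed genes follow the scaling. Of the 79 genes, 14 were uncompressed, 17.7% against 17% of the other genes, and 9 of those 14 were called higher, 0 lower and 5 not called. Among all 2414 uncompressed genes 9.03% were called higher and 40.2% lower. The median difference of the 14 was 0.12, beside -0.125 over all 2414 uncompressed genes. The remaining 18 calls were on the 65 compressed members, where 15.2% of all 11803 compressed genes were called higher. Without chow 1, 19 of the 79 and 8 of the 14 were called higher, where 1370 of all genes and 184 of the uncompressed genes were.

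The 9 called uncompressed genes differed by 0.018 to 0.18 log2 units, that is 1.01-fold to 1.14-fold. They were Ndufb8, Ndufb10, Ndufv2 and Ndufa8 of complex I, Sdhd and Sdhc of complex II, and Atp5pb, Atp5mg and Atp5pd of complex V. All chow arrays lay above all powder arrays for 10 uncompressed members, where 8.29% of all uncompressed genes did so, and for 27 of the 79, where 12.3% of all genes did so. All 9 were positive and called after quantile normalization (0.0389 to 0.212) and with array medians subtracted (0.0242 to 0.191), where 348 and 327 of the 2414 uncompressed genes were called higher.

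**Figure D1:**
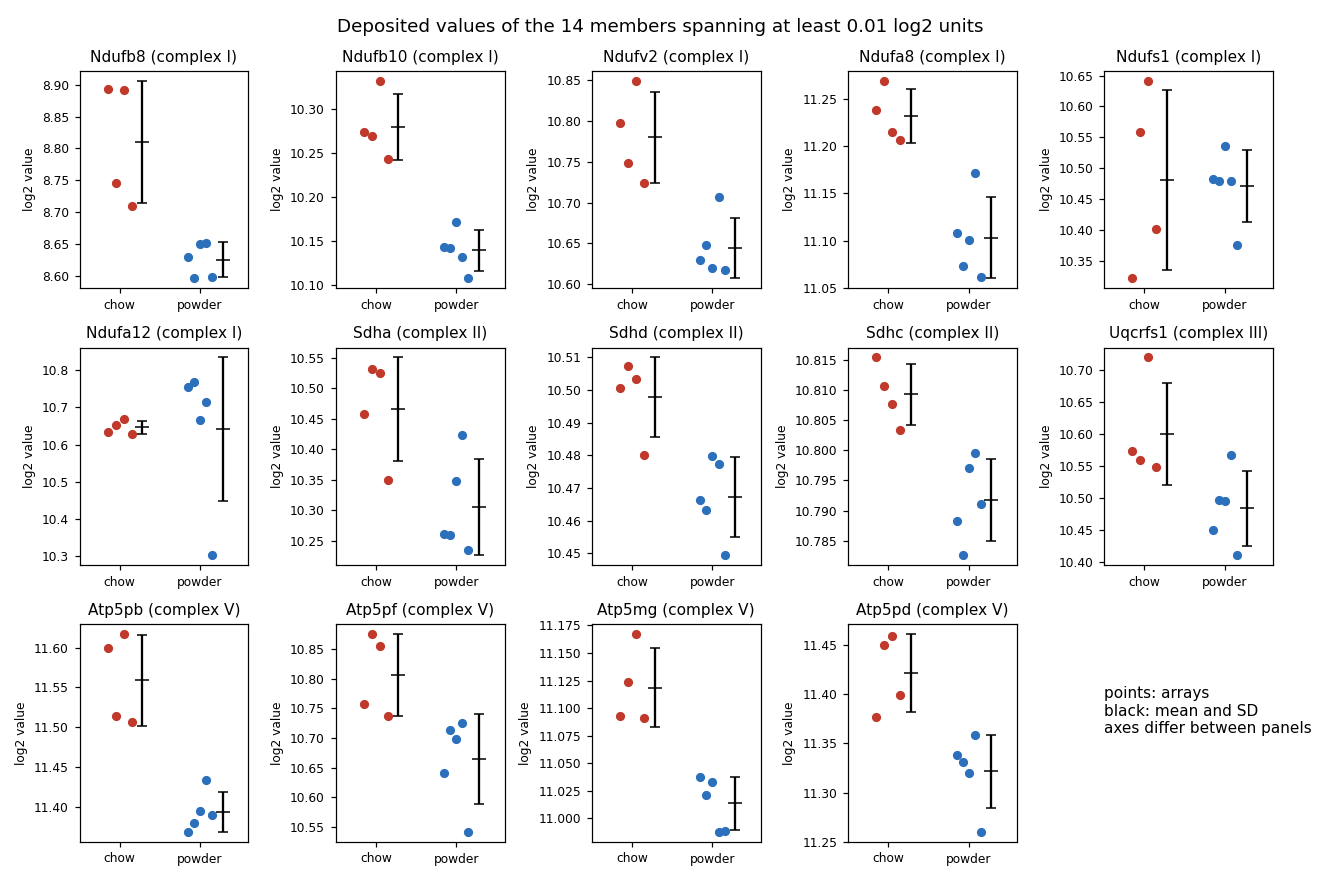
Deposited log2 values of the 14 uncompressed members, 1 panel each; the points are the 4 chow arrays (left, red) and the 5 powder arrays (right, blue), the black bars are mean and SD, and the axes differ between panels. The groups are apart for 10 members and overlap for Ndufs1, Ndufa12, Sdha and Uqcrfs1.

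**Figure D2:**
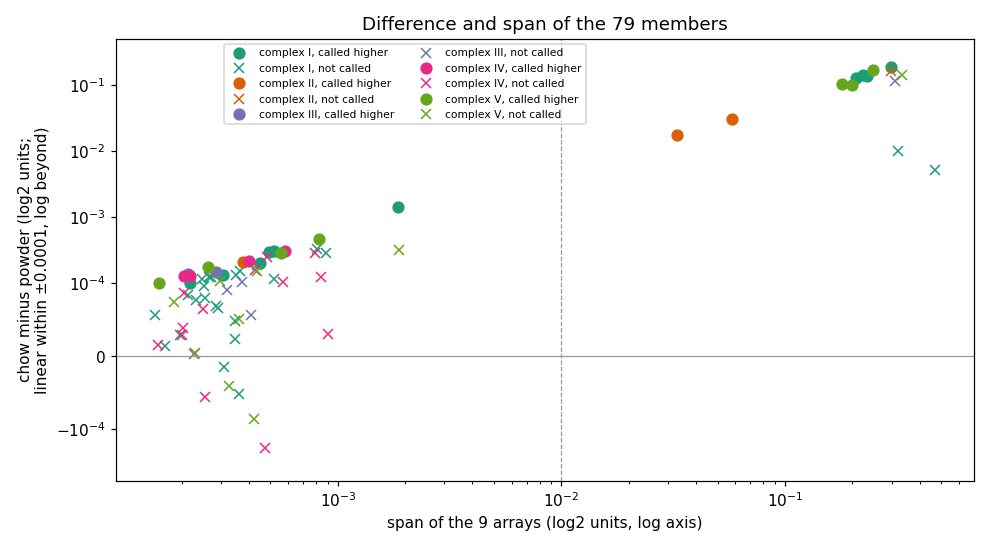
Difference between chow and powder (vertical axis, log2 units, linear within 0.0001 of 0 and logarithmic beyond) against the span of the 9 arrays (log axis) for the 79 members, coloured by complex; filled points were called higher, crosses were not called, and the dashed line is the span limit of 0.01. The 65 members left of the line have differences between -0.000191 and 0.00139, and all 17 of complex IV are among them.

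Over the 14 uncompressed members, the mean deviation from each gene's 9-array mean was 0.0448, 0.065, 0.11 and 0.00875 on chow arrays 1 to 4, against -0.0433, -0.0391, -0.0283, -0.00547 and -0.113 on powder arrays 1 to 5. The number above their own mean was 12, 14, 14 and 10 of 14 on chow arrays 1 to 4, against 2, 2, 2, 6 and 0 on powder arrays 1 to 5. Ndufs1, lowest on chow 1, and Ndufa12, highest on powder 2, went another way. Of the 14, 7 had their highest value on chow 3 and 9 their lowest on powder 5. A measure of RNA quality moved alongside: the 3' minus 5' difference of the beta-actin control probe sets, which grows as RNA is degraded or labelled less fully, was 1.54, 1.58, 1.44 and 1.54 on chow arrays 1 to 4, against 1.69, 1.68, 1.64, 1.55 and 1.70 on powder arrays 1 to 5. It was lowest on chow 3, where the members were highest, and highest on powder 5, where they were lowest. With this difference as a covariate, an alternative chosen after the data were seen, the 9 genes were still positive (0.0124 to 0.106). Of the 9, 0 were called (limma, adjusted p from 0.0746 to 0.328), where 213 of all genes were called higher and 511 lower. At an unadjusted p under 0.05, 4 uncompressed members were higher. The GAPDH control gave 3' minus 5' differences of 0.358 to 0.607 on chow and 0.499 to 0.657 on powder. For both controls the ranges of the 2 diets overlap. GAPDH, like beta-actin, was lowest on chow 3 (0.358) and highest on powder 5 (0.657).

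**Figure D3:**
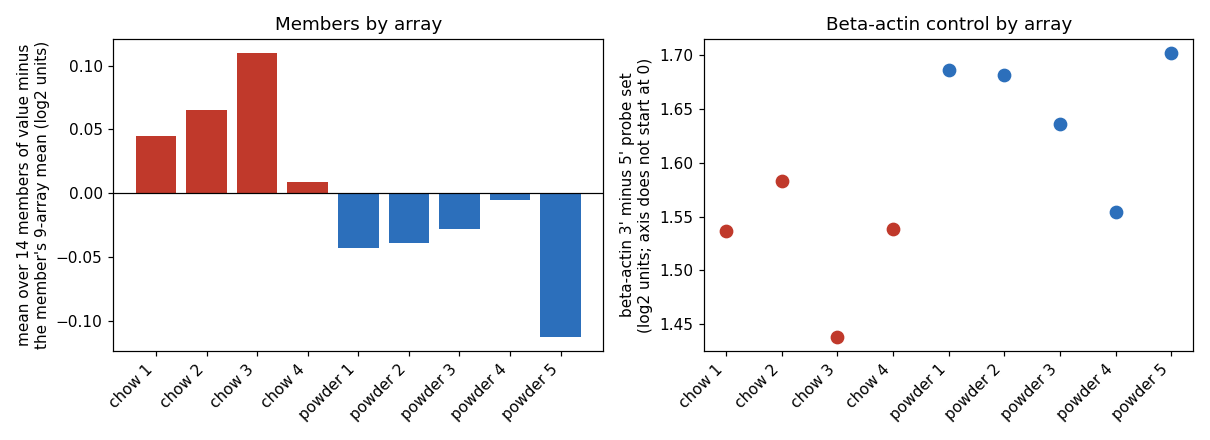
Left, mean over the 14 uncompressed members of the value minus the gene's mean over 9 arrays (log2 units) for each chow array (red) and powder array (blue); right, the 3' minus 5' difference of the beta-actin control on the same arrays. Chow 3 has the highest member mean (0.11) and the lowest beta-actin difference (1.44), and powder 5 has the lowest member mean (-0.113) and the highest beta-actin difference (1.70).

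In complex I, the NADH dehydrogenase and the largest of the complexes, 11 of 35 genes were higher under chow and 0 lower. Ndufb8, an accessory subunit of the membrane arm, was at 8.89, 8.75, 8.89 and 8.71 on chow arrays 1 to 4, against 8.63, 8.60, 8.65, 8.65 and 8.60 on powder arrays 1 to 5. The groups did not overlap, and chow 1 and chow 3 were highest. The difference was 0.18 ± 0.043 log2 units (SE), a fold of 1.14, with adjusted p = 0.0181 (limma). Without chow 1 it was 0.157. Ndufb10, another membrane arm subunit, was at 10.27, 10.27, 10.33 and 10.24 on chow arrays 1 to 4, against 10.14, 10.14, 10.17, 10.13 and 10.11 on powder arrays 1 to 5. The groups were well apart, with a difference of 0.14 ± 0.020 and adjusted p = 0.0041 (limma).

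Ndufv2, a core subunit that carries an iron-sulphur cluster in the NADH-oxidising part, was at 10.80, 10.75, 10.85 and 10.72 on chow arrays 1 to 4, against 10.63, 10.65, 10.62, 10.71 and 10.62 on powder arrays 1 to 5. Powder 4 came close to chow 4, and the difference was 0.14 ± 0.030 (adjusted p = 0.0149). With the beta-actin covariate it was 0.0571. Ndufa8, an accessory subunit on the intermembrane-space side, was at 11.24, 11.27, 11.21 and 11.21 on chow arrays 1 to 4, against 11.11, 11.07, 11.10, 11.17 and 11.06 on powder arrays 1 to 5. Its difference was 0.13 ± 0.024 (adjusted p = 0.00931), and again powder 4 was the highest powder array.

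The other uncompressed members of complex I were not called. Ndufs1, the core subunit that holds several iron-sulphur clusters, was at 10.32, 10.56, 10.64 and 10.40 on chow arrays 1 to 4, against 10.48, 10.48, 10.54, 10.48 and 10.38 on powder arrays 1 to 5. Chow arrays gave both its highest and its lowest value, and the difference was 0.01 ± 0.069 (adjusted p = 0.918). Ndufa12, an accessory subunit of the matrix arm, was at 10.63, 10.65, 10.67 and 10.63 on chow arrays 1 to 4, against 10.75, 10.77, 10.67, 10.71 and 10.30 on powder arrays 1 to 5. Powder 5 lay far below the other arrays, and the difference of 0.0051 ± 0.096 (adjusted p = 0.971) became -0.0794 without it (adjusted p = 0.0553).

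Of the 29 compressed complex I members, 7 were called higher, Ndufa11, Ndufa6, Ndufb11, Ndufb1, Ndufa9, Ndufa3 and Ndufb9, with differences from 9.97e-05 to 0.00139. Ndufa11, a membrane arm subunit, had the largest difference of the compressed members, 0.00139 ± 0.000163 (adjusted p = 0.00262). By role, 1 of 6 core subunits was called, 5 of 11 accessory subunits with B names, 5 of 13 with A or C names and 0 of 3 accessory subunits with S or V names. In that order, 1, 2, 1 and 0 of these calls were on uncompressed genes. Of all compressed genes 15.2% were called higher, and whether the roles differ was not tested. Ndufv1, the core subunit that binds NADH and flavin, was compressed and not called (adjusted p = 0.83). Ndufa4, now counted as a complex IV subunit, and its paralogue Ndufa4l2 were compressed and not called.

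In complex II, succinate dehydrogenase, which also works in the tricarboxylic acid cycle, 3 of 4 genes were higher. Sdha, the flavoprotein that oxidises succinate, had the largest difference of the 4 but was not called. It was at 10.46, 10.53, 10.53 and 10.35 on chow arrays 1 to 4, against 10.26, 10.26, 10.35, 10.42 and 10.23 on powder arrays 1 to 5. Chow 4 lay below powder 4, and the difference was 0.16 ± 0.053 (adjusted p = 0.0529). Sdha was called without chow 4 (0.20, adjusted p = 0.0298) or without powder 4 (0.19, adjusted p = 0.0303), and without each other array its adjusted p lay between 0.0752 and 0.121. With the beta-actin covariate its difference was 0.0527 (adjusted p = 0.639).

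The membrane anchors Sdhd and Sdhc, which hold the ubiquinone site, were both called on narrow ranges. Sdhd was at 10.5005, 10.5073, 10.5033 and 10.4802 on chow arrays 1 to 4, against 10.4664, 10.4634, 10.4799, 10.4773 and 10.4495 on powder arrays 1 to 5. The closest arrays were chow 4 and powder 3, and the difference was 0.03 ± 0.0079 (adjusted p = 0.0248). A second uncompressed probe set of Sdhd was also called, with 9.67, 9.65, 9.70 and 9.59 on chow arrays 1 to 4, against 9.51, 9.52, 9.52, 9.59 and 9.49 on powder arrays 1 to 5. Its difference was 0.13 ± 0.027 (adjusted p = 0.0129 over all probe sets).

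Sdhc was at 10.8154, 10.8107, 10.8077 and 10.8034 on chow arrays 1 to 4, against 10.7883, 10.7826, 10.7970, 10.7995 and 10.7911 on powder arrays 1 to 5. Its difference was 0.018 ± 0.0040 (adjusted p = 0.0163). With compressed probe sets left out before the fit, neither anchor was called (adjusted p = 0.143 for Sdhd and 0.345 for Sdhc). Sdhd was also not called without chow 1, chow 2, chow 3, powder 1 or powder 2 (adjusted p from 0.0535 to 0.0632). Sdhb, the iron-sulphur subunit, was compressed and called with a difference of 0.000208 (adjusted p = 0.0315), and its groups overlapped. Without any 1 of chow 1, 2 and 3 and powder 1, 2, 3 and 5, Sdhb was not called (adjusted p from 0.0628 to 0.0703).

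In complex III, the cytochrome bc1 complex, 2 of 7 genes were higher, both small compressed subunits, Uqcr11 (0.000149) and Uqcrq (0.000134). Without chow 1 or without chow 2, 0 complex III genes were called. Uqcrfs1, the Rieske iron-sulphur protein that moves electrons toward cytochrome c, was the 1 uncompressed member and was at 10.57, 10.56, 10.72 and 10.55 on chow arrays 1 to 4, against 10.45, 10.50, 10.49, 10.57 and 10.41 on powder arrays 1 to 5. Chow 3 was far above the other chow arrays, and powder 4 lay above the 2 lowest chow arrays. The difference of 0.12 ± 0.045 was not called (adjusted p = 0.0815), and with the beta-actin covariate it was -0.0158.

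The core proteins Uqcrc1 and Uqcrc2 were compressed and not called (0.000104 and 5.61e-05). A second Uqcrc2 probe set of lower mean was uncompressed, with 8.93, 8.59, 8.95 and 8.69 on chow arrays 1 to 4, against 8.43, 8.32, 8.34, 8.56 and 8.32 on powder arrays 1 to 5. It was singled out after its values were seen. The difference of 0.40 ± 0.092, a fold of 1.32, was called over all probe sets (adjusted p = 0.0173), and it exceeds those of the 79 representative probe sets. The 2 probe sets of Uqcrc2 therefore differ in call. Over all 88 member probe sets, 29 were called, all of them higher, where 17.9% of all rat probe sets were called higher and 16.7% lower.

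Complex IV, cytochrome c oxidase, had 17 genes, all compressed, of which 4 were higher and 0 lower, or 23.5% beside 15.2% of all compressed genes, a difference that was not tested. They were Cox5b (0.000304), Cox7a1 (0.000215), Cox7a2l (0.000128) and Cox8a (0.000127), with adjusted p from 0.0138 to 0.0271. Cox7a2l is a factor that joins complexes III and IV. The general forms Cox4i1, Cox6a1 and Cox6b1 had differences of -5.61e-05, 1.59e-05 and 3.83e-05, and Cox5a, another nuclear subunit, had -0.000191, with none of the 4 called. Both other scalings turned Cox4i1 and Cox5a positive and quantile normalization turned Cox6b1 negative.

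The tissue-restricted forms were Cox4i2 of lung, Cox6a2, Cox7a1 and Cox8b of heart and skeletal muscle, and the testis forms Cox6b2 and Cox7b2. Cox7a1 alone of these 6 was called (adjusted p = 0.0146). Their levels lay between 6.57 and 7.43 on all 9 arrays, but levels of different probe sets are not compared here. A sequence annotated as a pseudogene, Cox6c-ps1, is also taken by the rule and was not called (0.000245). With no uncompressed member, no complex IV gene gives a difference of interpretable size.

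In complex V, the ATP synthase, 7 of 16 genes were higher and 0 lower. The peripheral stalk, which holds the catalytic head still against the rotor, has 4 subunits, and 3 of them were called. Atp5pb, its long b subunit, was at 11.60, 11.51, 11.62 and 11.51 on chow arrays 1 to 4, against 11.37, 11.38, 11.39, 11.43 and 11.39 on powder arrays 1 to 5. The groups were well apart, and the difference was 0.17 ± 0.027, a fold of 1.12 (adjusted p = 0.00638). Atp5pd, the d subunit, was at 11.38, 11.45, 11.46 and 11.40 on chow arrays 1 to 4, against 11.34, 11.33, 11.32, 11.36 and 11.26 on powder arrays 1 to 5. Its difference was 0.10 ± 0.025 (adjusted p = 0.0225), and it was not called without chow 2 (adjusted p = 0.0575).

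Atp5pf, the F6 coupling factor of the stalk, was at 10.76, 10.87, 10.85 and 10.74 on chow arrays 1 to 4, against 10.64, 10.71, 10.70, 10.73 and 10.54 on powder arrays 1 to 5. All chow arrays were above all powder arrays, but chow 4 and powder 4 were close and powder 5 lay lowest. The difference of 0.14 ± 0.047 was not called (adjusted p = 0.0546). Atp5po, the OSCP subunit that caps the stalk, was compressed and called (0.000281, adjusted p = 0.0175).

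In the membrane part 4 of 6 genes were called. Atp5mg, the g subunit, was at 11.09, 11.12, 11.17 and 11.09 on chow arrays 1 to 4, against 11.04, 11.02, 11.03, 10.99 and 10.99 on powder arrays 1 to 5. The groups did not overlap and the difference was 0.11 ± 0.019 (adjusted p = 0.00864). The c ring gene Atp5mc3 (0.000464), Atp5me (0.000176) and Atp5mk (0.000101) were called on compressed probe sets. In the catalytic head and central stalk 0 of 5 genes were called, all compressed, with Atp5f1a at 0.000311 and Atp5f1b, the catalytic beta subunit, at -4.06e-05. Whether the head and the peripheral stalk differ was not tested. Quantile normalization put Atp5f1a at -0.0212 and Atp5f1b at 0.0117. Atp5if1, the inhibitor that blocks ATP hydrolysis, was not called on any of its 3 probe sets.

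**Figure D4:**
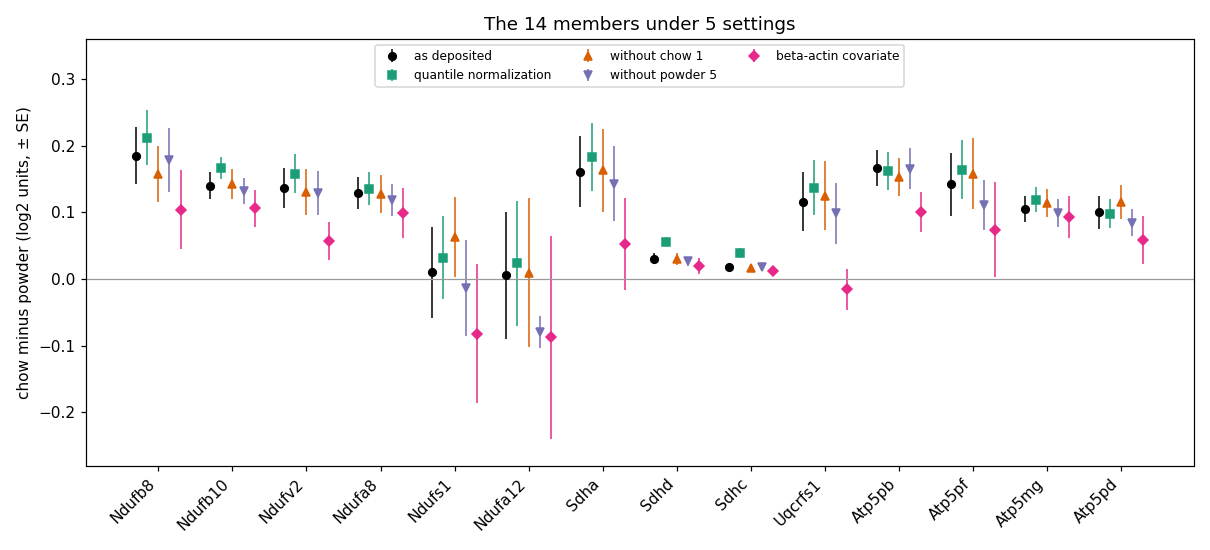
Difference between chow and powder (log2 units, ± SE) for the 14 uncompressed members under 5 settings: the values as deposited, quantile normalization, without chow 1, without powder 5, and with the beta-actin covariate. The covariate brings Uqcrfs1 to -0.0158, and without powder 5 Ndufa12 is at -0.0794.

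Promoter sequences are shown because members of complexes I, II and V were called in the same direction. RefSeq promoters of assembly GRCr8, 250 bases before to 50 after the start, were available here for 71 of the 79 genes. Respiratory genes are known targets of Nrf1, of GABP and other ETS factors, of Yy1 and of the oestrogen-related receptors. The motifs searched on both strands were GCATGCGC, and the full NRF-1 site that holds it, for NRF-1, CCGGAAG for the ETS core, AAGATGG for the YY1 core, TCAAGGTCA for the receptors, the longer ETS site CCGGAAGT, the longer YY1 site and GGGCGG for the Sp1 family. Each longer site holds its core. Shown first are the 4 called uncompressed members whose window holds a match, then Ndufa11 and Atp5po, called compressed members that hold the full NRF-1 site. Capitals mark every match to GCATGCGC, the ETS and YY1 cores and the receptor motif in these 300 bases.
Ndufb8, chr1:253362887-253363186, minus strand: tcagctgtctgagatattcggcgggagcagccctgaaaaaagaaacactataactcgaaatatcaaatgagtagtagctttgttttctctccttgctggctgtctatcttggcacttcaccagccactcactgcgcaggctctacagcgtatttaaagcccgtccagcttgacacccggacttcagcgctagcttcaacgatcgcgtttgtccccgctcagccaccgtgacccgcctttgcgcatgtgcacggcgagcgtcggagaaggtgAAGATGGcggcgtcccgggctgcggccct
Sdhc, chr13:86097976-86098275, minus strand: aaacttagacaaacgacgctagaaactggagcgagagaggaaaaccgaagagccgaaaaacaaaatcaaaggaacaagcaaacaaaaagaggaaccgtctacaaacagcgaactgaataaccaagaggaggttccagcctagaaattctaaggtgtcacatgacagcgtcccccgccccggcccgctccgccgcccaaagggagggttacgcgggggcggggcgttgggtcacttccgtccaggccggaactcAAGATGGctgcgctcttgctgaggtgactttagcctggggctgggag
Sdhd, chr8:59850592-59850891, minus strand: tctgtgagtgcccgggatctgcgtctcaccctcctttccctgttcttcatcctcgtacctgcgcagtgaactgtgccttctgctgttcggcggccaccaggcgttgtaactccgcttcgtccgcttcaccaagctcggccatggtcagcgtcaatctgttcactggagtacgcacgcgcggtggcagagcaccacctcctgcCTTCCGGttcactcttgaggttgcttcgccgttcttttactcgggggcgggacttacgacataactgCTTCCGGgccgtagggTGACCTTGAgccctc
Atp5mg, chr8:54130358-54130657, minus strand: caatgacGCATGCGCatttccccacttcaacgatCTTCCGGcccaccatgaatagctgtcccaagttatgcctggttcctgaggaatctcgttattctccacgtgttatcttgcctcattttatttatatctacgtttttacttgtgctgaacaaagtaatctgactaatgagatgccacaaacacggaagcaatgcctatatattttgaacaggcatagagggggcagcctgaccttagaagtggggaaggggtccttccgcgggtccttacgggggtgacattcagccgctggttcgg
Ndufa11, chr9:1637364-1637663, plus strand: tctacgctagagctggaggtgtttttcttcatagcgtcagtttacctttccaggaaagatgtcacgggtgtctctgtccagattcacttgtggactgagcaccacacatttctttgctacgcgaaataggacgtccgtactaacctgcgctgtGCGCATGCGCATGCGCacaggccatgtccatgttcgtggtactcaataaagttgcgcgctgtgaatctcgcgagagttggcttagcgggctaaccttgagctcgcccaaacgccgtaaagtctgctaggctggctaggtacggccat
Atp5po, chr11:44657434-44657733, minus strand: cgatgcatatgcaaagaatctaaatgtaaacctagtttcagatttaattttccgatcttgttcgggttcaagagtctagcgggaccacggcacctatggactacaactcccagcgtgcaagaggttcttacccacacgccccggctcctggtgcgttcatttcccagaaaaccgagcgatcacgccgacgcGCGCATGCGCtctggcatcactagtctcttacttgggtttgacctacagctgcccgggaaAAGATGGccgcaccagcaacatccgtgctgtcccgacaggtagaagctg
In Ndufb8, Sdhc and Atp5po the capitals at or just downstream of the start are the YY1 core. In Sdhd they are the ETS core at both sides of the start and the receptor motif near the end, all read on the other strand. In Atp5mg the NRF-1 motif begins 243 bases and the ETS core 216 bases before the start. Ndufa11 holds 4 overlapping NRF-1 matches, the first 97 bases before the start, and Atp5po holds 2 that overlap. The windows of Ndufb10, Ndufv2 and Atp5pb hold no match to these 4. No promoter was available here for the called uncompressed members Ndufa8 and Atp5pd.

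GCATGCGC was in 6 of the 23 promoters of members called higher (26.1%), in 1 of the 48 of members not called (2.08%) and in 729 of all 27457 promoters (2.66%). The full site was in 3 of those 23, in 0 of the 48 and in 0.936% of all. All 3, Ndufa11, Atp5po and Atp5me, are compressed. Ndufa6 and Sdhb, called members that hold GCATGCGC, are compressed too. Among the 7 uncompressed called members with a promoter, 1 held GCATGCGC, Atp5mg. The ETS core was in 39.1% of the called, 22.9% of the not called and 9.21% of all promoters, and the YY1 core in 34.8%, 22.9% and 7.26%. The longer ETS site was in 13% of the called, 10.4% of the not called and 4.02% of all promoters, and the longer YY1 site in 13%, 12.5% and 1.16%. GGGCGG was in 43.5%, 43.8% and 34.7%. For these 3 motifs the called and the not called members were close. The receptor motif was in 2 of the 23 called, Sdhd and Atp5mc3, and in 0.397% of all. Most of the 23 called members are compressed, and calls on compressed genes follow the scaling. The split into called and not called members therefore depends on it. These are counts of letters in a window and were not tested.

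**Figure D5:**
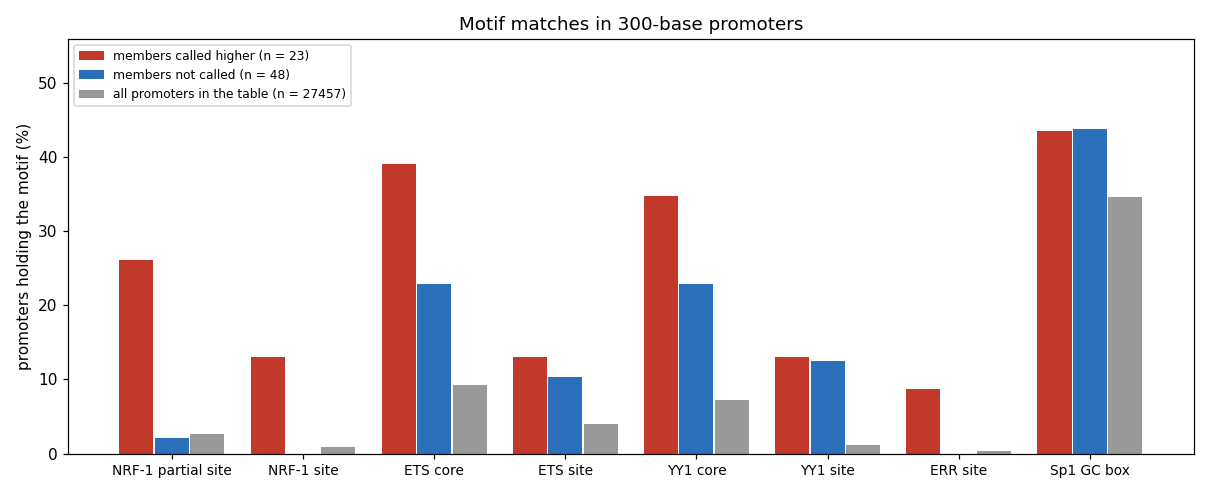
Share of 300-base promoters (%) that hold each of the 8 motifs searched, for members called higher (red, n = 23), members not called (blue, n = 48) and all promoters in the table (grey, n = 27457). The partial NRF-1 site is in 26.1%, 2.08% and 2.66% of them, and the Sp1 motif in 43.5%, 43.8% and 34.7%. Of the members called higher, 7 are uncompressed, and 1 of these holds the partial NRF-1 site.

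The other genes of the pathway are read beside the 14.2% of all genes called higher and the 18.8% called lower. Of 46 measured assembly factors, 5 were higher and 5 lower. The uncompressed call there was Cox15, which makes the haem of complex IV, at 8.87 under chow and 9.14 under powder (-0.27 ± 0.045, adjusted p = 0.00665). Of 22 genes that direct transcription of respiratory genes or mitochondrial DNA, 1 was higher and 6 lower, 5 of the 6 on compressed genes, with Esrrg, an oestrogen-related receptor, at 9.22 under chow and 9.42 under powder (-0.20 ± 0.056, adjusted p = 0.032). Ppargc1b (0.000321) and Gabpb1 (-0.000229) were called on compressed probe sets. The complex III subunit gene Cyc1 and the complex I acyl carrier Ndufab1, which the symbol rule leaves out, were compressed and not called.

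Of 21 tricarboxylic acid cycle genes 0 were higher and 2 lower, Idh3a (-0.000181) and Idh3g (-0.000172), both compressed. Of 11 carriers, uncoupling proteins and porins 2 were higher and 1 lower, the last being the neuronal uncoupling protein Slc25a27 (-0.28 ± 0.070, adjusted p = 0.0225). The adenine nucleotide carrier Slc25a4 was at 0.10 ± 0.037 and was not called (adjusted p = 0.0656). Of 15 glycolysis genes 2 were higher and 2 lower, among them Pfkp, the platelet-type phosphofructokinase, at 10.66 under chow and 10.67 under powder (-0.0085 ± 0.0021, adjusted p = 0.0202). Median differences of these lists lay between -0.00011 and 0.000132, beside 0.000127 for the 79 subunit genes and -7.19e-06 for all genes. Compressed genes set these medians. Over uncompressed genes alone, the median was -0.15 for 5 assembly factors and -0.152 for 2 transcription genes. It was -0.032 for 4 carriers and 0.059 for 2 glycolysis genes. The 14 uncompressed subunit genes had 0.12, and all 2414 uncompressed genes -0.125.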

How the data were processed

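The authors deposited 1 table of log2 expression values per probe set and array, and the log2 scale was read from their range. How these values were made is not given in the sources used here, in software, background correction or normalization. Per the labels, total RNA was isolated with TRIzol and RNeasy before labelling. No scanner data were used, so no background limit is set, and the number of arrays limits precision. Groups came from the sample titles.

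After 57 control probe sets were left out, gene symbols were taken from the array's annotation. All 79 symbols were found in the RefSeq table of GRCr8, and 40 of the genes, 9 of the 14 uncompressed, have related copies or pseudogenes listed there, from which their probe sets may not be told apart. The diets were compared with limma 3.58.1 under R 4.3.3 (lmFit and eBayes without covariates) over all genes, or over all probe sets where stated, with Benjamini-Hochberg adjustment and a threshold of 0.05. Differences are chow minus powder, and errors are limma's SE. The script was tested on simulated data. The members, lists and roles were chosen with earlier results of these data known. Every uncompressed member was named with its values, together with isoform pairs and subunits of central function. List genes were named where uncompressed and called; Slc25a4, Cyc1, Ndufab1 and the compressed Ppargc1b, Gabpb1, Idh3a and Idh3g fall outside that rule and were chosen after their values were seen, as were the relay markers. The alternatives were 2 other scalings, 2 variance models, array weights, filters on dim and compressed probe sets, the median over probe sets, a threshold of 0.1, the replicate number as a block, and leaving out each array. A beta-actin covariate and a span limit of 0.1 were added after the data were seen.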

Additional observations from a re-analysis of the deposited data

Results flagged for a closer look

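Among 60 groups checked, the 4 chow or 5 powder arrays for each of 30 named genes, 5 held an array far from the others of its diet, by the gap to its neighbour over the range of the group. Chance alone gives about 1 in 20. On chow 3, Uqcrfs1 (0.852) and Cox6b1 (0.883) were each far above the other chow arrays. On powder 5, Ndufa12 was far below the other powder arrays (0.777). Ndufv1 was far above them on powder 4 (0.771), and Cox6b1 far below them on powder 3 (0.712). Cox6b1 and Ndufv1 are compressed.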

How the results depend on the processing

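The 9 called uncompressed members were positive under all alternatives run, and 7 to 9 of them were called except under the replicate block and the beta-actin covariate. Quantile normalization gave 46 members higher and 1 lower, with 27 in complex I, 53 member probe sets and 89 pathway genes called. Subtracting array medians gave 77 higher, with 33 in complex I, 7 in III, 17 in IV and 16 in V, 86 probe sets and 110 pathway genes. With compressed probe sets left out 10 members were higher, 4 in complex I, 1 in II, 1 in III, 0 in IV and 4 in V, with 11 probe sets and 9 pathway genes called; fewer genes were tested. At a threshold of 0.1, 17 complex I and 42 pathway genes were called. With the beta-actin covariate 1 member was higher, Cox6a2 of complex IV, with 0 in complexes I, II, III and V, 0 uncompressed members, 1 probe set and 7 pathway genes (limma; 16 members higher at an unadjusted p under 0.05). Leaving out 1 array gave 19 to 32 members higher, 0 to 1 lower (Cox5a, without powder 3), 1 to 4 in complex II and 0 to 2 in complex III.

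Deviations of same-numbered arrays correlated at -0.32, 0.16, -0.377 and -0.0068. So few correlations cannot decide whether the replicate numbers pair the samples. With the number as a block, 0 members were called, in each complex, among uncompressed members, probe sets and pathway genes alike (limma; 32 members higher at an unadjusted p under 0.05), and 0 genes higher and 11 lower in all. The block put Ndufs1 at -0.0139 and Ndufa12 at -0.0794.

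Members that were not called changed sign in places. Quantile normalization and median subtraction put Cox5a at 0.0203 and 0.00638, Cox4i1 at 0.00786 and 0.00652, and Atp5f1b at 0.0117 and 0.00653, and quantile normalization put Cox6b1 at -0.0104 and Atp5f1a at -0.0212. Array weights put Ndufa12 at -0.000697. The covariate put Ndufs1 at -0.0821, Ndufa12 at -0.0879, Ndufv1 at -0.000134, Uqcrfs1 at -0.0158, Uqcrc1 at -5.8e-06, Cox4i2 at -2.82e-05, Cox6a1 at -9.39e-06 and Atp5f1a at -0.000499. Without 1 array, Ndufs1 ranged from -0.0437 to 0.063, Ndufv1 ranged from -3.78e-05 to 7.77e-05, Cox6b2 ranged from -1.37e-05 to 5.27e-05, Ndufa12 ranged from -0.0794 to 0.0373, Cox6a1 ranged from -1.49e-05 to 3.75e-05, Atp5f1a ranged from -1.81e-05 to 0.000579 and Atp5f1b ranged from -9.31e-05 to 1.54e-05. The cause of these changes was not tested.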
